A study of Mus musculus with 2 samples.

Results

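The interleukin and chemokine system genes described here were the 127 of 21938 mouse protein-coding genes whose symbols begin with Il, Ccl, Ccr, Cxcl or Cxcr followed by a digit, in the GENCODE M21 annotation of chromosomes 1 to 19, X and Y. The receptor chains Il7r, Il2ra, Il2rb, Il2rg, Il4ra, Il21r and Il15ra and the Ilf genes were left out. By textbook function the 127 genes comprised 37 interleukin ligands, 33 interleukin receptor chains, 35 chemokine ligands, 17 chemokine receptors, 4 antagonists or binding proteins (Il1rn, Il18bp, Il22ra2 and Il1f5) and 1 enzyme, Il4i1, which is named for its induction by interleukin 4. Each gene was asked whether a binding site of the transcription factor GABPα lay at its start.

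GABPα binding was mapped by chromatin immunoprecipitation and sequencing (ChIP-seq) in wild-type CD4+ T cells of strain C57BL/6, isolated with MACS magnetic beads from Miltenyi. The paper describes no stimulation of these cells before fixation. There was 1 ChIP library, made with the anti-GABPα antibody sc-22810X of Santa Cruz, and 1 library of input DNA made without an antibody, which served as the control of the peak calling. The number of mice behind each library is not given in the sources used here, and with 1 ChIP library no spread between replicates can be given and no test was run. The deposited list held the positions of 6782 peaks, whose widths were between 104 and 5151 bp (median 157 bp), and carried no height, fold enrichment or read depth, nor any value by which the purity of the T cells could be checked.

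GABPα is the DNA-binding subunit of GABP, a member of the Ets family of transcription factors that recognise a GGAA core, and GABP is known for binding CCGGAAG at the CpG-rich promoters of genes for mitochondrial, ribosomal and other basic functions of the cell. Interleukins are secreted proteins through which leukocytes act on each other, and most of their receptors signal through Janus kinases and STAT proteins, or, in the interleukin 1 and 17 families, through adaptors such as MyD88 and Act1. Chemokines are small secreted proteins that direct the migration of leukocytes through receptors coupled to G proteins. CD4+ T cells secrete many of these ligands after activation, and carry receptors that set their differentiation and their homing.

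GABPα peaks were rare at the starts of interleukin and chemokine system genes. In 3 of the 127 genes, namely Ccl25, Il3ra and Il4i1, a peak was found no more than 1000 bp from a transcript start, which is 2.36% (95% Wilson interval 0.807 to 6.72%). The same held for 17.7% of all 21938 protein-coding genes and for 17.8% of the 21811 other ones (3877 genes, 17.3 to 18.3%). The share of the members minus that of the other genes was -15.4 percentage points, with a 95% Newcombe interval of -17.1 to -11.03 points. These intervals treat genes as independent and cover counting error only, whereas several of the genes lie side by side in clusters, and a site too weak to be called would not be in the list.

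**Figure D1:**
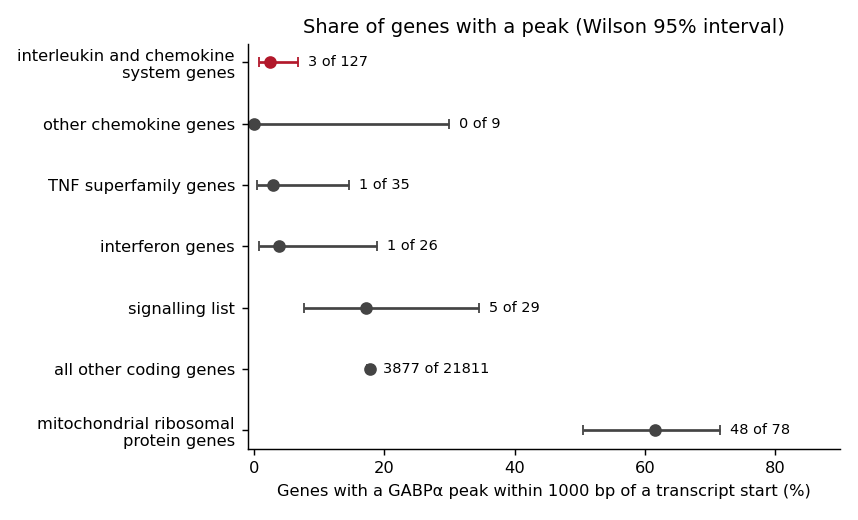
Share of genes with a GABPα peak within 1000 bp of a transcript start, in percent, for the interleukin and chemokine system genes (red) and 6 other gene groups (grey), with Wilson 95% intervals as bars and the counts beside them. The members sit at 3 of 127, between the other chemokine genes at 0 of 9 and the TNF superfamily genes at 1 of 35, and below all other coding genes at 3877 of 21811.

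Divided by role, each class had 0 or 1 gene with a peak, to be read against 17.8% of the other coding genes. None of the 37 interleukin ligands had a peak at a start (exact 95% interval 0 to 9.49%), nor did any of the 17 chemokine receptors (0 to 19.5%) or of the 4 antagonists and binding proteins (0 to 60.2%), and the last 2 intervals include 17.8%. Among the 33 interleukin receptor chains the peak was at Il3ra (3.03%, 0.0767 to 15.8%), the specific chain of the receptor for interleukin 3. Of the 35 chemokine ligands, Ccl25 had a peak (2.86%, 0.0723 to 14.9%), the chemokine of thymus and small intestine that acts through Ccr9. The remaining peak was at Il4i1, a secreted L-amino acid oxidase that is neither a cytokine nor a receptor.

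The genes just inside and just outside the window were far apart. Peaks overlapped transcript starts of Ccl25 and Il3ra, and the peak of Il4i1 lay 122 bp from its start. The next genes were Il31ra, the receptor chain for interleukin 31, with a peak 2415 bp from a transcript start, and Il16, a T-cell chemoattractant, with a peak 5028 bp from one. After these came Il11 at 9902 bp, Il1a at 12505 bp and Ccl17 at 13363 bp. Widening the window to 5000 bp therefore brought the count to 4 of 127 (3.15%), against 20.02% of the other genes.

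Il3ra carried more peaks than the other members. It lies on chromosome 14 at 14346275-14356011 of mm10 (GRCm38), on the plus strand, and 4 peaks were counted at its starts. The first peak, 241 bp wide, ran from position -666 to -426 relative to the gene start, and the second, 271 bp wide, from -235 to 35, into the first exon. Peaks 3 and 4, 163 and 144 bp wide, lay 3253 to 3415 and 3597 to 3740 bp into the gene, in an intron of the coding transcripts, and were counted because a retained-intron transcript starts at 14349621. Of the 3880 coding genes with a peak, 3579 had 1 peak, 276 had 2, 19 had 3, and 6 genes (0.155%), Il3ra among them, had 4 or more. No start of another coding gene lay within 1000 bp of the 4 peaks, and the nearest other start, of the antisense gene Gm48860, was 954 bp from the second peak.

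The sequences of the Il3ra peaks are shown because none of them holds CCGGAAG, or its shorter form CGGAAG, while 3 of them hold 1 or more copies of another 9-base sequence with the Ets core, ACAGGAAGT. This sequence was picked after the peaks had been seen. The lines give the RefSeq reference of GRCm38.p6 on the plus strand, the second peak only up to the base before the gene start, and capitals mark ACTTCCTGT, which is ACAGGAAGT read on the other strand.
Il3ra peak 1, chr14:14345609-14345849, plus strand: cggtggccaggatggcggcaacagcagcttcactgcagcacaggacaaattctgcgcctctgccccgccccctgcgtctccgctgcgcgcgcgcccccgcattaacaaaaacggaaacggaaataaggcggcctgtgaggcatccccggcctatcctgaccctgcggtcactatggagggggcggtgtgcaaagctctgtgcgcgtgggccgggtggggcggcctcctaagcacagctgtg
Il3ra peak 2, chr14:14346040-14346274, plus strand: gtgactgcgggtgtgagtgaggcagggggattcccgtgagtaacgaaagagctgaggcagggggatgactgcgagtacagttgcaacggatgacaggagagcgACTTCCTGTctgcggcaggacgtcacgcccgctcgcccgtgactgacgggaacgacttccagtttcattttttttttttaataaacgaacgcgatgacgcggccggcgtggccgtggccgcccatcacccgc
Il3ra peak 3, chr14:14349528-14349690, plus strand: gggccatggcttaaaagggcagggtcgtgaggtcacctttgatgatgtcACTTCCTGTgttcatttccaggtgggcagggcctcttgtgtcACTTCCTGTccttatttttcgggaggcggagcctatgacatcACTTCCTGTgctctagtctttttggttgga
Il3ra peak 4, chr14:14349872-14350015, plus strand: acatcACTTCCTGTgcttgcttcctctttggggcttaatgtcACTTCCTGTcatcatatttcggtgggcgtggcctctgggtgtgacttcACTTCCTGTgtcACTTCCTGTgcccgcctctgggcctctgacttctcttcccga

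ACAGGAAGT stood 0, 1, 3 and 4 times in Il3ra peaks 1 to 4, and the GGAA core 2, 4, 4 and 6 times, on either strand. Within peak 3 the copies began 42 bp apart, and within peak 4 they were spaced 37, 48 and 12 bp apart. From 2 kb before its start to its end the gene held 26 copies in 11.7 kb (2.22 per kb), 20 of them on the minus strand, and 8 of the 26 lay in peaks. The median over the 21938 coding genes was 0 copies per kb, 2 genes including Il3ra held as many per kb, and 25 genes held as many copies in all. The copies further along the gene, such as the 6 between 8728 and 9324 bp from the start, were outside any peak.

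**Figure D2:**
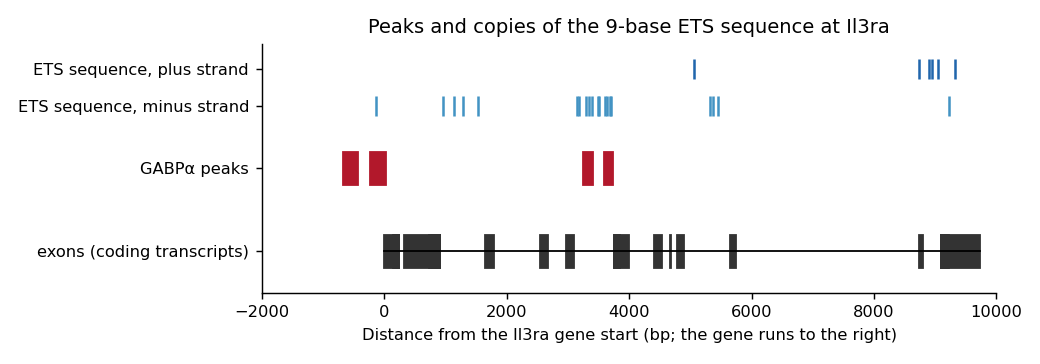
Map of Il3ra by distance from the gene start in bp, with exons of the coding transcripts as black boxes, GABPα peaks as red boxes and copies of ACAGGAAGT on each strand as blue ticks. Peak 1 lies upstream of the gene start and peak 2 covers it. Peaks 3 and 4 lie between exons over a run of minus-strand copies, while 18 of the 26 copies lie outside the peaks.

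At Ccl25 and Il4i1 the peak also lay at the starts of neighbouring genes. The peak at Ccl25, 279 bp wide and at percentile 88.2 of all peaks by width, was at chr8:4325023-4325301, from -187 to 91 bp relative to the gene start. It covered every annotated Ccl25 start in reach, the coding ones at 4325233 and 4325236 included. Elavl1, which encodes an RNA-binding protein that stabilises mRNAs, starts on the opposite strand, with 1 transcript start inside the peak at 4325086 and its coding start at 4325413, which is 203 bp into Ccl25 and outside the peak. The peak at Il4i1, 157 bp wide, was at chr7:44816109-44816265, from -278 to -122 bp relative to the gene start. A start of Nup62, which encodes a nuclear pore protein, lay 21 bp upstream of this peak and another between the peak and Il4i1, at -87 bp, so Nup62 was nearer than Il4i1, and a start of the transcription factor gene Atf5 on the opposite strand was 309 bp away. With such overlaps a peak list cannot assign a site to 1 of the genes.

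The Ets sequences in these peaks are given with the bases around them, as RefSeq reference on the strand named, with ACAGGAAGT in capitals for Ccl25 and CCGGAAG for Il4i1. Each was the only GGAA core of its peak.
Ccl25 site, chr8:4325201-4325230, minus strand: ggacgacgccgACAGGAAGTcccgcctacg
Il4i1 site, chr7:44816172-44816201, plus strand: ccccaaattctCCGGAAGcacgccctcctc
The Ccl25 bases shown run from -9 to 20 bp relative to the gene start, and those of Il4i1 from -215 to -186 bp.

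**Figure D3:**
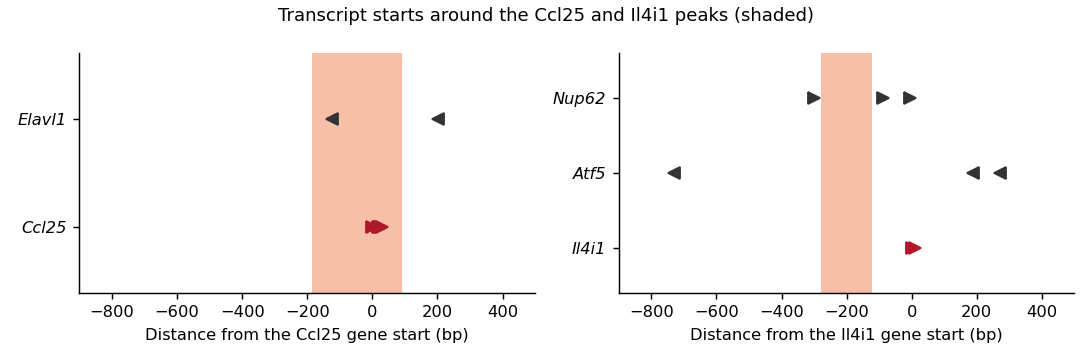
Annotated transcript starts around the Ccl25 peak (left) and the Il4i1 peak (right), by distance in bp from the start of each gene, with the peaks shaded and arrows pointing along transcription (red for the member, black for its neighbours). The Ccl25 peak spans -187 to 91 bp and holds starts of Ccl25 and Elavl1, and the Il4i1 peak spans -278 to -122 bp and lies 21 bp from a Nup62 start.

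None of the peaks at the starts of members was mostly soft-masked. Of the 6 peaks, 0 had at least 50% of their bases soft-masked as repeat sequence in the reference (exact interval 0 to 45.9%), against 60 of the 3453 peaks at starts of other coding genes (1.74%). The second Il3ra peak was 30.3% soft-masked and the other 5 were at 0%. In all 6, every 36-base stretch, the length of the reads, occurred 1 time in the genome on either strand (100%, 54.1 to 100%), as it did in 90.2% of the peaks at other starts (89.2 to 91.2%). Both measures can miss a tandem repeat whose copies differ. Whether the spaced ACAGGAAGT copies of Il3ra peaks 3 and 4 belong to such a repeat was not tested. The intervals treat the 6 peaks as independent, although 4 of them lie at Il3ra. The widths of the 6 peaks, 144 to 279 bp with a median of 202 bp, lay within the range at other starts, whose median was 210 bp.

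The Ets sequences of the 6 peaks were set beside those of the peaks at other starts. CCGGAAG stood in 1 of the 6 peaks (16.7%, exact interval 0.421 to 64.1%), that of Il4i1, and in 57.3% at other starts (1978 of 3453, 55.6 to 58.9%), a share inside the interval of the 6. ACAGGAAGT stood in 4 of the 6 (66.7%, 22.3 to 95.7%), at Ccl25 and in 3 peaks of Il3ra, and in 3.16% at other starts (2.60 to 3.795%), but it was picked from these same peaks, so the gap is no evidence of a difference. Peaks with 3 or more copies were 12 of all 6782, and 2 of these 12 were Il3ra peaks 3 and 4. Because 4 of the 6 peaks lie at Il3ra, these shares rest mostly on 1 gene.

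Soft-masked repeats were found among peaks further from the starts. Il1rapl1, an X-linked gene for a relative of the interleukin 1 receptor accessory chain that is best known from neurons, held 2 peaks in its long gene body. Both were 100% soft-masked, and no 36-base stretch of either occurred only 1 time, with a median of 10774 copies per stretch in the one at chrX:87262134-87262291 and 63 in the one at chrX:88051142-88051245. The body peak of Il31ra at chr13:112578134-112578247, 114 bp wide, had 0% soft-masked bases, and 59.5% of its 36-base stretches were unique. A peak overlapped the gene body in 7 of the 127 members (5.51%, 2.70 to 10.9%) and in 19.1% of the other coding genes (18.6 to 19.6%).

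The other body peaks lay at or near other genes. That of Ccr9, the receptor for Ccl25, was the 418 bp peak at chr9:123717458-123717875, which lies at the start of Lztfl1, 39019 bp from the Ccr9 start. That of Il11ra1, the specific chain of the interleukin 11 receptor, lay at the start of Dctn3, a dynactin subunit gene, 23137 bp away. The peak inside Il16, at chr7:83660523-83660731, overlapped an exon of the antisense gene 2310044K18Rik, 948 bp from its start, and held CCGGAAG beside a GGAA core on the other strand, shown with CCGGAAG in capitals.
Il16 site, chr7:83660622-83660651, minus strand: cgcagaaccaaaCCGGAAGttccgggcctg

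For the 124 members without a peak at a start, the nearest peak was often at a neighbour. It lay within 1000 bp of a start of another coding gene for 72 of the 124 (58.1%, 49.3 to 66.4%), much as for the 17934 other coding genes without a peak (56.2%, 55.4 to 56.9%). Their nearest peaks were 78 distinct intervals, of which 19 (24.4%, exact interval 15.3 to 35.4%) were mostly soft-masked and 19 held no unique 36-base stretch, against 34.6% (33.3 to 35.98%) and 33.6% among the nearest peaks of the other genes. CCGGAAG stood in 31 of the 78 (39.7%, 28.8 to 51.5%) and in 35.0% of the others' nearest peaks. The peak at Heatr6 was the nearest for 5 members, Ccl3, Ccl4, Ccl5, Ccl6 and Ccl9, and those at Eif2d and Fyco1 for 4 each.

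Distances were long in every group of ligands and receptors. The median distance from the gene start to the nearest peak was 104231 bp over the 127 members, with quartiles of 41788 and 217438 bp, against 70274 bp over the other coding genes and 102624 bp over those of them without a peak. By role the median was 79815 bp for interleukin ligands, 127262 bp for interleukin receptors, 114190 bp for chemokine ligands and 116463 bp for chemokine receptors. Il13ra2, the decoy receptor for interleukin 13, was farthest from a peak, at 975035 bp. A peak within 50 kb of a transcript start was found for 42 of the 127 (33.1%, 25.5 to 41.6%) and for 45.6% of the other genes (44.9 to 46.2%).

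**Figure D4:**
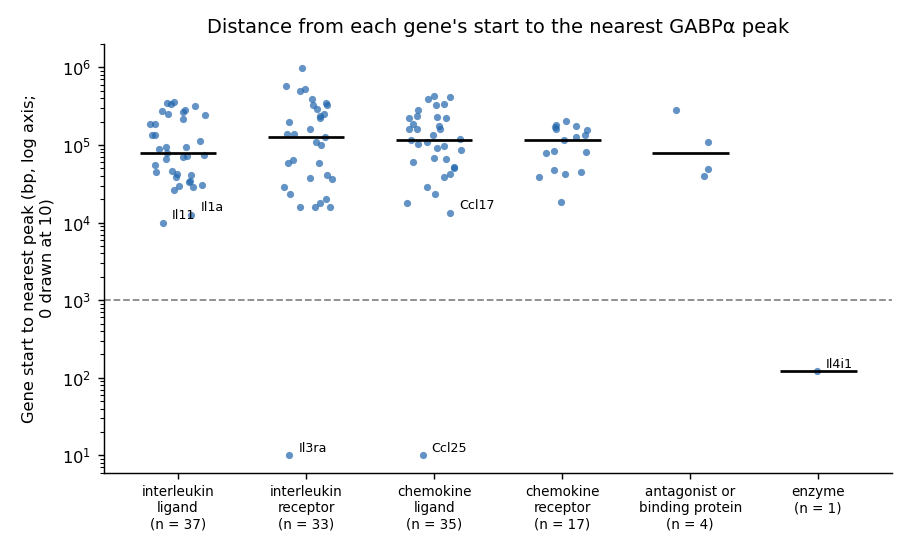
Distance in bp (log axis) from the start of each of the 127 genes to the nearest GABPα peak, by role, with a point for each gene, a bar at the median of each role and a dashed line at 1000 bp. Genes whose start lies inside a peak, Il3ra and Ccl25, are drawn at 10 bp, Il4i1 sits at 122 bp, and all other points lie at 9902 bp or above.

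None of 34 members that CD4+ T cells are known to use had a peak at a start (95% Wilson interval 0 to 10.2%, against 17.8% of the other coding genes). With no stimulation described for the cells, binding at these genes after activation was not examined. A peak lay within 50 kb of the gene start for 11 of them (32.4%, 19.1 to 49.2%), for 39 of all 127 members (30.7%, 23.4 to 39.2%) and for 42.5% of the other coding genes (41.9 to 43.2%). The lowest of their distances by gene start was 15775 bp, the median 97616.5 bp and the highest 578777 bp. Among the cytokines of helper T-cell subsets, Il17f and Il17a lay 29652 and 89364 bp from the peak at Mcm3, a replicative helicase gene, and Il21 and Il2, the main T-cell growth factor, 79815 and 186492 bp from the peak shared by Bbs12 and Cetn4. The type 2 cytokine genes Il5, Il13 and Il4 lay 30296, 55688 and 71721 bp from 1 peak, chr11:53690390-53690498, which was 100% soft-masked with no unique 36-base stretch. Il10, an inhibitory cytokine, was 133200 bp from the peak at Eif2d, and Il9 and Il22 were 346648 and 252550 bp from theirs. Il16 was 41850 bp from its nearest peak by gene start, which was 100% soft-masked. Counted from all its transcript starts, the nearest peak of Il16 was 5028 bp away.

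Among the receptors of T cells, Il12rb1, a chain of the receptors for interleukins 12 and 23, was the closest of the 34 by gene start. It lay 15775 bp from the peak at the start of Mast3. Il10ra, which binds interleukin 10, lay 17639 bp from a 104 bp peak that held 1 copy of ACAGGAAGT and was at no coding start. Il6st, the signalling chain gp130, was 36312 bp from a peak with 1 copy of ACAGGAAGT, and Il27ra 37496 bp from a peak that was 67.9% soft-masked. Il12rb2 and Il23r, which complete the receptors for interleukins 12 and 23, were 109096 and 224763 bp from the peak at Serbp1. Il6ra was at 139461 bp, and Il1rl1, Il18r1 and Il18rap, receptors for interleukins 33 and 18, were at 492985, 528967 and 578777 bp.

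The homing receptors and the chemokines of T cells likewise had no peak at a start. Ccr8 lay 18145 bp from the peak at Slc25a38, Ccr9 39019 bp from that at Lztfl1, Cxcr6 45378 bp from that at Fyco1 and Ccr6, a receptor of Th17 cells, 47091 bp from that at Mpc1. Ccr7, which guides naive T cells to lymph nodes, was 83441 bp from the peak at Krt222. Distances for Ccr4, Cxcr5 of follicular helper cells, Cxcr4 and Cxcr3 of Th1 cells were 135089, 154106, 175326 and 201436 bp. The inflammatory chemokines Ccl4, Ccl3 and Ccl5 were at 91002, 104231 and 223068 bp.

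Many of the genes lie in clusters, which held 4 peaks, too few to compare their density closely with that of the genome. When starts up to 200 kb apart were chained, a distance picked after the data had been seen, 9 clusters of 3 or more members held 46 members in 2085 kb and 4 peaks, which is 1.92 per Mb against 2.49 per Mb over the full length of chromosomes 1 to 19, X and Y. The 6 receptor genes of the interleukin 1 and 18 families on chromosome 1 spanned 478 kb with 0 peaks, and the 5 Cxcl genes on chromosome 5, led by the neutrophil attractants Cxcl1 and Cxcl2, had 0 peaks in 147 kb and none nearer than 325896 bp. Also without a peak were the Il10, Il19, Il20 and Il24 genes in 143 kb, the 6 genes of the Il1f and Il1rn group in 198 kb, the 5 genes from Ccl5 to Ccl4 in 139 kb, and Ccl27b, Il11ra2, Ccl19 and Ccl21a in 119 kb. The cluster of Il4, Il13 and Il5, which contains the unbound DNA repair gene Rad50, and that from Ccl2 to Ccl1 held 1 peak each, both mostly soft-masked with no unique 36-base stretch. The chemokine receptor cluster on chromosome 9, 7 genes in 469 kb, held 2 peaks with CCGGAAG, at the starts of Lztfl1 and Fyco1.

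CCGGAAG was counted at the gene starts themselves. From 250 bases before to 50 after the gene start, searched on both strands as the exact letters, CCGGAAG was found at 7 of the 127 members (5.51%, 2.70 to 10.9%) and at 2357 of the 21811 other coding genes (10.8%, 10.4 to 11.2%), a share just inside the interval of the members. The shorter CGGAAG, which every CCGGAAG contains, was at 12 members (9.45%, 5.49 to 15.8%) and 19.96% of the others, a share above the interval of the members. The bare core GGAA was at 125 members (98.4%) and 96.1% of the others. Of the 7 members with CCGGAAG, 1 had a peak, Il4i1 (14.3%, 2.57 to 51.3%), against 1618 of 2357 others (68.6%, 66.7 to 70.5%). Of the 120 members without CCGGAAG, 2 had a peak (1.67%, 0.458 to 5.87%), against 11.6% of the others (11.2 to 12.1%).

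Of the 6 member starts with CCGGAAG and no peak, 5 are shown to set the letters around the motif beside those of the Il4i1 site, as RefSeq reference of GRCm38.p6 on the strand that reads CCGGAAG, which is in capitals.
Il20, chr1:130911420-130911449, minus strand: cagtacctagatCCGGAAGggactgggagg
Il1f8, chr2:24153056-24153085, minus strand: ggcaagagggacCCGGAAGgtggtggaggg
Il17ra, chr6:120463193-120463222, plus strand: cctcgggggagCCGGAAGcgggacagagga
Il1rl2, chr1:40324590-40324619, plus strand: gcggacagagaCCGGAAGctgggagatgat
Ccl27a, chr4:41774218-41774247, plus strand: ttgcgtatcacCCGGAAGgggaggaaccag
The ligands Il20 and Il1f8 had the motif centred at 17 and -91 bp from the gene start, and their nearest peaks were at 241594 and 33172 bp. For the receptor chains Il17ra and Il1rl2 the motif lay at -40 and -6 bp, and the nearest peaks were at 98763 and 388025 bp. Ccl27a, a skin chemokine with a near-identical copy in Ccl27b, had it at 15 bp and its nearest peak at 50930 bp. ACAGGAAGT was in the same window at 4 members (3.15%, 1.23 to 7.82%) and at 0.981% of the other genes. Of these 4, Ccl25 and Il3ra had a peak and Il17rc and Ccl6 did not. Among the 214 other genes with it 85 had a peak (39.7%, 33.4 to 46.4%). The sequence was picked from the member peaks, those of Ccl25 and Il3ra among them, so neither comparison is evidence of a difference.

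Member starts also differed from other starts in base composition. In the 1000 bp around the gene start the median GC content was 49.6% for the members (34.2 to 68.6%) and 54.8% for the other coding genes, 58.1% for those with a peak and 53.7% for those without. The ratio of observed to expected CpG, which is high in CpG islands, had a median of 0.231 for the members, 0.765 for other genes with a peak and 0.444 for other genes without. When all coding genes were divided into 5 equal groups by this ratio, 97 of the 127 members (76.4%) fell in the lowest 2 groups, where 1.77 and 4.67% of the other genes had a peak and 0 of the 97 members did. The upper 2 groups held 12 members and all 3 with a peak, and there 30.8 and 35.5% of the other genes had one. No interval was computed for the members within these groups, whose counts are too small to compare closely with the other genes. In the top group, Ccl25 and Il4i1 had a peak, and Ccr9, Il17d, Il17ra, Il17rd, Il6ra and Il6st did not.

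**Figure D5:**
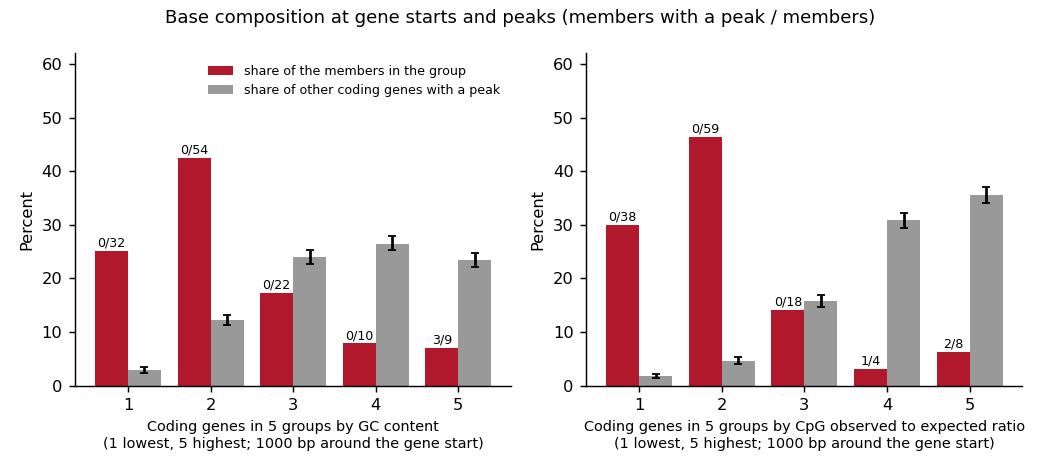
All coding genes in 5 equal groups by GC content (left) and by observed to expected CpG ratio (right) of the 1000 bp around the gene start, with the percent of the 127 members in each group (red) and the percent of other coding genes there with a GABPα peak (grey, Wilson 95% intervals as bars). Numbers over the red bars give members with a peak over members in the group, and most members lie in the 2 lowest groups, where few other genes have a peak.

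Weighted to the members' distribution over the groups, the share of other coding genes with a peak was 13.8% by GC content and 8.14% by the CpG ratio, between the 17.8% without weights and the 2.36% of the members. The groups and weights were chosen after the values had been seen. Soft-masked sequence was alike around both kinds of start, with a median of 9.60% of the 1000 bp for the members and for the other coding genes.

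Genes that act with the interleukins and chemokines inside the cell had a larger share with a peak. Of a list of 29 signalling genes, 5 had a peak at a start (17.2%, 7.60 to 34.5%), near the 17.8% of all other coding genes. These were the Janus kinase gene Tyk2, Stat6 of interleukin 4 signalling, the interleukin 1 receptor kinase Irak1, the phosphatase Ptpn11 and the G protein subunit Gnai3. The peaks overlapped the starts of Stat6, Irak1, Ptpn11 and Gnai3 and lay 132 bp from that of Tyk2, none was mostly soft-masked, and CCGGAAG stood in those of Ptpn11, 1 time, and Gnai3, 2 times. No other coding gene started within 1000 bp of these 5 peaks, in contrast to the peaks of Ccl25 and Il4i1.

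Other families of secreted immune ligands and their receptors had shares near that of the members, with wide intervals. Of 35 TNF superfamily ligands and receptors, 1 had a peak (2.86%, 0.506 to 14.5%), Tnfrsf9, the costimulatory receptor 4-1BB, whose peak also lay at the start of Park7. Among 26 interferon ligands and receptors, 1 had a peak (3.85%, 0.682 to 18.9%), Ifnar1, a chain of the type I interferon receptor, 94 bp from it. None of 9 further chemokine genes, among them Cx3cr1, Xcl1 and Ackr3, had a peak (0 to 29.9%), nor did any of the 7 receptor chains left out of the rule (0 to 35.4%). Apart from that of the TNF superfamily, these intervals also include the 17.8% of the other coding genes. As a contrast, 48 of 78 mitochondrial ribosomal protein genes had a peak (61.5%, 50.4 to 71.6%).

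The low share of the members held under the other definitions of a bound gene. It was 2 of 127 (1.57%) when a peak had to cover a transcript start or when no other gene was allowed to start nearer to the peak, and 3 of 134 (2.24%) with the 7 left-out receptors put back. Counting only peaks with 1 coding gene in reach, a choice made after the data had been seen, left Il3ra alone (0.787%), against 11.9% of the other genes. Near-identical copies, such as Ccl21a and Ccl21b or Il11ra1 and Il11ra2, can hide a site from uniquely placed reads, and how reads with several matches were treated is not given in the sources used here.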

How the data were processed

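The samples were 1 anti-GABPα ChIP library and 1 input library of wild-type CD4+ T cells. The 36-bp single-end reads were trimmed by the authors with trimmomatic (quality under 20, reads under 30 bases discarded) and aligned with bowtie to mm10. Peak positions called with MACS2 against the input (q cutoff 0.01) were deposited, with an empty score column, so depth, height and q value are unknown. Tool versions are not given in the sources used here.

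Starts were taken as 0-based and printed 1-based. Distances ran from a peak's edge to all GENCODE M21 transcript starts, or to the gene's 5′ end where a gene start is named, on GRCm38.p6. Lower-case reference bases counted as soft-masked, and 36-base sequences were counted over both strands of the genome. Intervals were Wilson, Clopper-Pearson (called exact) or Newcombe, at 95%, with no test. Scripts were tested on simulated data. Members and lists were chosen with earlier results of these data known. ACAGGAAGT, the clusters, the composition groups and weights and the count of peaks with 1 coding gene in reach were chosen after seeing the values. Genes named were those with a peak within 5000 bp, those nearest to and farthest from one, and a T-cell list. Neighbours, body peaks, motif carriers and cluster members were added after their values were seen. Some members' values and sequences are not reported here. Alternatives covered window, transcripts, peaks, motif and members. Python 3.11.15 was used with numpy 2.4.6, scipy 1.17.1, pandas 2.3.3, pysam 0.24.0, numba 0.67.0, matplotlib 3.10.9 and samtools 1.23.1.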

Additional observations from a re-analysis of the deposited data

How the results depend on the processing

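In all 14 alternatives the share of members with a peak stayed below that of the other coding genes, with differences (members minus others) of -16.9 to -11.1 percentage points. The share of the other genes moved outside its interval to 17.3% with a window of 500 bp, 20.02% with 5000 bp, 13.9% when a peak had to cover a transcript start, 16.5% from the gene's 5′ end only, 14.1% for peaks at or above the median width, 16.2% for peaks with unique 36-base sequences throughout, 16.2% when no other gene started nearer, and 11.9% for peaks with 1 coding gene in reach, where the member share was 0.787%. The share of members with the motif was 98.4% for GGAA, against 96.1% of the other coding genes. For CCGGAAG within 500 bases it was 11.8% (7.29 to 18.6%), against 19.2% of the other coding genes. With a limit of 25% in place of 50%, 16.7% of the 6 member peaks counted as soft-masked. The median distance of members was 154106 bp to peaks that are not mostly soft-masked and 174950 bp to peaks at or above the median width.

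No paired analysis was possible because there is 1 ChIP library and the result comes from no test. A single list of called intervals limits these values: a site below the cutoff, or in sequence where reads were not placed, would not be listed, and the peak strength, the depth and the spread between animals are unknown. Genes in clusters share neighbours and peaks, so the intervals, which count genes as independent, are too narrow for them. The sequence pattern at Il3ra rests on 1 gene.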
